A study of Mus musculus with 10 samples.

Results

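This account follows 7 genes that move chloride across neuronal membranes, Clcn2, Clcn3, Clcn5, Clcn6, Clcn7, Slc12a2 and Slc12a5, in mouse hippocampal neurons treated with inhibitors of 2 microRNAs. They were chosen by symbol, out of 48709 genes in the count tables, because Clcn5 carries the gene of microRNA-501 in an intron and the others are relatives or partners in chloride handling. All 7 were found by Ensembl identifier and all 7 had enough counts to be tested. Lipid nanoparticles were added to the primary cultures on day 10 in vitro, and RNA was taken on day 12, after 48 h of exposure. The nanoparticles held an antisense inhibitor of miR-409-5p (anti-miR-409-5p, n = 4 libraries), an inhibitor of miR-501-3p (anti-miR-501-3p, n = 4) or scramble RNA (control, n = 2), so the controls carried the same vehicle. The labels give neither the strain nor the sex of the animals, nor the number of cultures behind each group, so a p-value here reflects library-to-library spread, which may be technical.

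A neuron's internal chloride sets whether GABA, the main inhibitory transmitter, inhibits or excites it. Slc12a2 encodes NKCC1, the sodium-potassium-chloride cotransporter that brings chloride in, and Slc12a5 encodes KCC2, the neuron-specific potassium-chloride cotransporter that carries it out and whose level increases as neurons mature. The CLC family has a different division of labour: ClC-2 (Clcn2) is a chloride channel of the plasma membrane, whereas ClC-3, ClC-5, ClC-6 and ClC-7 (Clcn3, Clcn5, Clcn6 and Clcn7) exchange chloride for protons on endosomes and lysosomes. Loss of ClC-3 in mice causes the hippocampus to degenerate, loss of ClC-7 causes lysosomal storage and osteopetrosis, and human CLCN5 is the gene of Dent disease of the kidney.

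In the mm10 annotation Clcn5 lies on the minus strand of chromosome X, from 7153810 to 7319358, and 5 microRNA genes, Mir532, Mir188, Mir362, Mir501 and Mir500, lie on the same strand inside it. They span 10.8 kb of intron 3 of a transcript with 15 exons and 14 introns, and that intron is 103.6 kb long (X, 7213011 to 7316658). In 3 of the 5 annotated Clcn5 transcripts they are intronic, and they overlap an exon of 0 transcripts. The Mir501 hairpin occupies 7241243 to 7241351. Mir409, the gene of the other targeted microRNA, is on the plus strand of chromosome 12, from 109743158 to 109743236, and is not linked to any of the 7 genes by position. The inhibited strands and the neighbouring strand that has the same seed as miR-501-3p are given 5′ to 3′ with the seed, bases 2 to 8, in capitals, as RefSeq lists them for GRCm38.p6, because the seed decides which transcripts a microRNA can pair with.
miR-409-5p: aGGUUACCcgagcaacuuugcau
miR-501-3p: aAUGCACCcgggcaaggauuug
miR-500-3p: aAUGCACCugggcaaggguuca
These strands lie at chr12:109743172-109743194 on the plus strand (miR-409-5p) and at chrX:7241270-7241291 (miR-501-3p) and chrX:7237695-7237716 (miR-500-3p) on the minus strand. Among the 11 mature strands listed for Mir409 and the 5 genes inside Clcn5, miR-501-3p and miR-500-3p are a pair with the seed AUGCACC, and the seed of miR-409-5p occurs once. Polyadenylated RNA does not hold the mature strands, and these 6 microRNA genes had 0 counts in each of the 10 libraries, which allows up to 0.0935 to 0.135 CPM (counts relative to library size, with a floor of 3 counts per library), so neither inhibitor's effect on its target could be checked in these data.

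**Figure D1:**
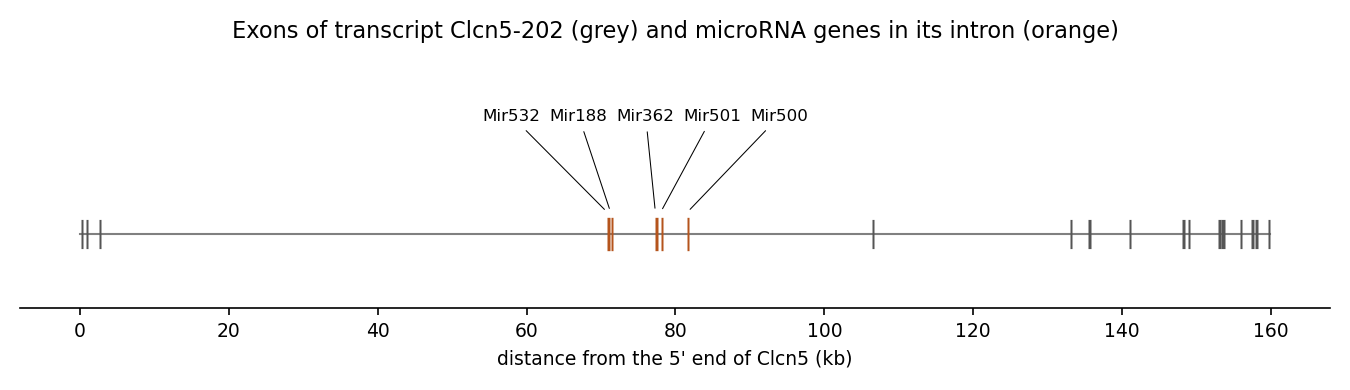
Map of Clcn5 drawn from its 5' end, in kb; grey bars are the 15 exons of the transcript drawn and orange bars are the 5 microRNA genes. All 5 stand in intron 3, the longest gap between grey bars, with no exon among them.

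The 3′ untranslated region (UTR) of each gene was searched on the sense strand for the heptamers that pair with the seeds, GGTAACC and GTAACCA for miR-409-5p and GGTGCAT and GTGCATA for miR-501-3p, where the last base of GTAACCA and GTGCATA is an A opposite base 1. The heptamers of a microRNA overlap where both occur and were then counted as 1 site. For miR-409-5p, 0 of the 7 regions held a match, against 10.5% of the 14231 regions of tested genes. For miR-501-3p, 2 of the 7 held 1 match each, Clcn5 and Slc12a2, against 13.6% of all regions. The host gene of miR-501 thus contains the letters of a miR-501-3p site in a UTR of its own, though the transcript drawn in the map ends before it. In another annotated transcript it lies 1001 bases after the stop codon of a region of 5919 bases. The site is at chrX:7158710-7158739 on the minus strand of mm10, with the heptamer in capitals.
Clcn5: attagcatcccGGTGCATttctttgaaaag
The Slc12a2 match, followed by A, begins at base 1382 of 2770. Regions of similar length (within 25%) held such a match in 36.5% of 811 cases for Clcn5 and in 21.0% of 2800 cases for Slc12a2. A match in these letters describes the sequence and shows no binding.

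Depth allowed small differences to be measured. Libraries held 22254788 to 32096808 gene counts, and single counts of the 7 genes ran from 737 to 12436, where sampling alone gives a relative error of 3.68% at the low end. Summed over 10 neuron markers, 10 of them detected, the level was 9132 to 9379 CPM under anti-miR-409-5p, 9002 to 9559 CPM under anti-miR-501-3p and 8944 to 9056 CPM in control, with Map2 at 51644 to 79064 counts. Markers of inhibitory neurons had 1062 to 1106 CPM under anti-miR-409-5p, 1025 to 1062 CPM under anti-miR-501-3p and 1101 to 1120 CPM in control. The cultures also held astrocyte markers (4639 to 4843 CPM under anti-miR-409-5p, 4433 to 4649 CPM under anti-miR-501-3p, 4385 to 4434 CPM in control) and oligodendrocyte-lineage markers (440.04 to 551 CPM under anti-miR-409-5p, 370.2 to 527 CPM under anti-miR-501-3p, 493 to 686 CPM in control). Microglial markers were scarce (14.1 to 16.4 CPM under anti-miR-409-5p, 14.7 to 18.3 CPM under anti-miR-501-3p, 16.5 to 16.9 CPM in control). Single markers differed widely, with Cx3cr1 at 0 to 4 counts, Csf1r at 92 to 141 and Aif1 at 176 to 269. Markers of endothelial, mural and fibroblast cells, choroid plexus and ependyma, and progenitors overlapped between the groups, at 204 to 271, 12.1 to 17.7 and 226 to 264 CPM under anti-miR-409-5p, 252 to 315, 14.6 to 24.2 and 182 to 247 CPM under anti-miR-501-3p, and 235 to 330.4, 18.04 to 21.2 and 203 to 276 CPM in control, apart from those of choroid plexus under anti-miR-409-5p, which lay below both controls. No marker was at 0 in all libraries. All these sums are relative to total counts. They lack the scaling by the trimmed mean of M-values (TMM) used for the CPM of single genes below. TMM factors were 1.02 and 1.03 in control, 0.984 to 1.01 under anti-miR-409-5p and 0.988 to 1.00 under anti-miR-501-3p. On the TMM scale the control sums would be lower beside the anti-miR sums, so the overlaps given here hold for total counts only. In such bulk RNA, fewer cells of a type and less RNA per cell cannot be told apart.

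The control libraries stood apart from the anti-miR libraries in 2 ways that touch every comparison against control. The slope of a library's log2 level on transcript GC content, relative to the mean library, was -0.105 to 0.0373 per 10 percentage points under anti-miR-409-5p, -0.127 to 0.00853 under anti-miR-501-3p and 0.197 to 0.263 in control. Transcripts of the mitochondrial genome took 3.40% to 3.80% of the counts under anti-miR-409-5p, 3.33% to 3.95% under anti-miR-501-3p and 2.59% to 2.78% in control. The ranges of the anti-miR libraries and the controls do not overlap in either measure. Comparisons of genes against control are therefore also given after the per-library trend on GC content and transcript length was removed, here called the GC-corrected value.

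Slc12a5 was the most abundant of the 7 transcripts and Slc12a2 or Clcn5 the least. On the scale of CPM per kilobase of merged exons, the level of Slc12a5 was 50.4 ± 2.00 under anti-miR-409-5p, 49.9 ± 2.40 under anti-miR-501-3p and 56.1 ± 0.412 in control (SD, n = 4, 4 and 2, as for all levels). Clcn6 followed with 29.9 ± 0.543 under anti-miR-409-5p, 30.1 ± 0.733 under anti-miR-501-3p and 31.8 ± 0.274 in control. The level of Clcn3 was 17.1 ± 0.411 under anti-miR-409-5p, 17.2 ± 0.494 under anti-miR-501-3p and 14.1 ± 0.578 in control. In every group these 3 stood apart from each other and from the 4 below them. Clcn7 had 11.1 ± 0.471 under anti-miR-409-5p, 10.8 ± 0.326 under anti-miR-501-3p and 12.2 ± 0.482 in control, and Clcn2 had 5.59 ± 0.0811 under anti-miR-409-5p, 5.44 ± 0.136 under anti-miR-501-3p and 6.37 ± 0.469 in control, again with no overlap between neighbours. At the bottom, Slc12a2 had 4.31 ± 0.323 under anti-miR-409-5p, 4.46 ± 0.183 under anti-miR-501-3p and 3.28 ± 0.247 in control, and Clcn5 had 4.02 ± 0.148 under anti-miR-409-5p, 4.30 ± 0.0585 under anti-miR-501-3p and 3.76 ± 0.341 in control. Libraries of this last pair overlapped in both anti-miR groups, where Slc12a2 had the higher mean, and stood apart in control, where Clcn5 did. Per kilobase of the longest transcript the order was less settled: Clcn3 stood above Clcn6 under anti-miR-409-5p (35.7 ± 0.857 and 34.2 ± 0.620, with no overlap) and under anti-miR-501-3p (35.9 ± 1.03 and 34.3 ± 0.836, overlapping), and in control Slc12a2 (5.50 ± 0.413) and Clcn5 (5.13 ± 0.466) changed places and overlapped.

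Against control, the chloride importer rose and the chloride exporter fell under both inhibitors. Slc12a2, which lies on chromosome 18 (57878678 to 57946821, plus strand), had 42.9, 45.5, 49.3 and 50.6 CPM in the 4 anti-miR-409-5p libraries, 46.3, 51.1, 49.1 and 48.4 CPM in the 4 anti-miR-501-3p libraries, and 33.9 and 37.7 CPM in the 2 control libraries. Each of the 8 anti-miR libraries was above both controls. Its level was 1.31 times that of control under anti-miR-409-5p (log2 fold change 0.39 ± 0.066, SE, adjusted p = 4.95e-04, edgeR's quasi-likelihood test with Benjamini-Hochberg adjustment over 16884 genes, as for each adjusted p against control below) and 1.36 times under anti-miR-501-3p (0.44 ± 0.066, adjusted p = 1.15e-04). The gene has a GC content of 44.2%, and tested genes within 1 percentage point of it had a median log2 fold change of 0.16 (quartiles 0.053 and 0.25) under anti-miR-409-5p and 0.17 (0.064 and 0.27) under anti-miR-501-3p, so its own difference was outside these quartiles in both comparisons. After the GC correction it was 0.22 ± 0.049 under anti-miR-409-5p (adjusted p = 0.00611) and 0.27 ± 0.049 under anti-miR-501-3p (adjusted p = 8.09e-04), and all anti-miR libraries were still above both controls.

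Slc12a5 (chromosome 2, 164960802 to 164999731, plus strand) had 388, 386, 372 and 356 CPM in the anti-miR-409-5p libraries, 391, 379.5, 366 and 349.9 CPM in the anti-miR-501-3p libraries, and 419.8 and 415 CPM in control. Both anti-miR groups lay wholly below the controls, although they spread more widely than the controls did. The fold was 0.899 under anti-miR-409-5p (log2 fold change -0.15 ± 0.045, adjusted p = 0.0173) and 0.890 under anti-miR-501-3p (-0.17 ± 0.045, adjusted p = 0.00802). Its GC content is 58.3%. Genes within 1 percentage point of it had a median of -0.18 under anti-miR-409-5p and of -0.19 under anti-miR-501-3p, and the GC-corrected difference was -0.014 ± 0.031 under anti-miR-409-5p (adjusted p = 0.878) and -0.0042 ± 0.031 under anti-miR-501-3p (adjusted p = 0.963). The call also ended without control replicate 1 (adjusted p = 0.187 under anti-miR-409-5p and 0.121 under anti-miR-501-3p) and, under anti-miR-409-5p, without control replicate 2 (0.0802) or anti-miR-409-5p replicate 3 (0.0511).

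**Figure D2:**
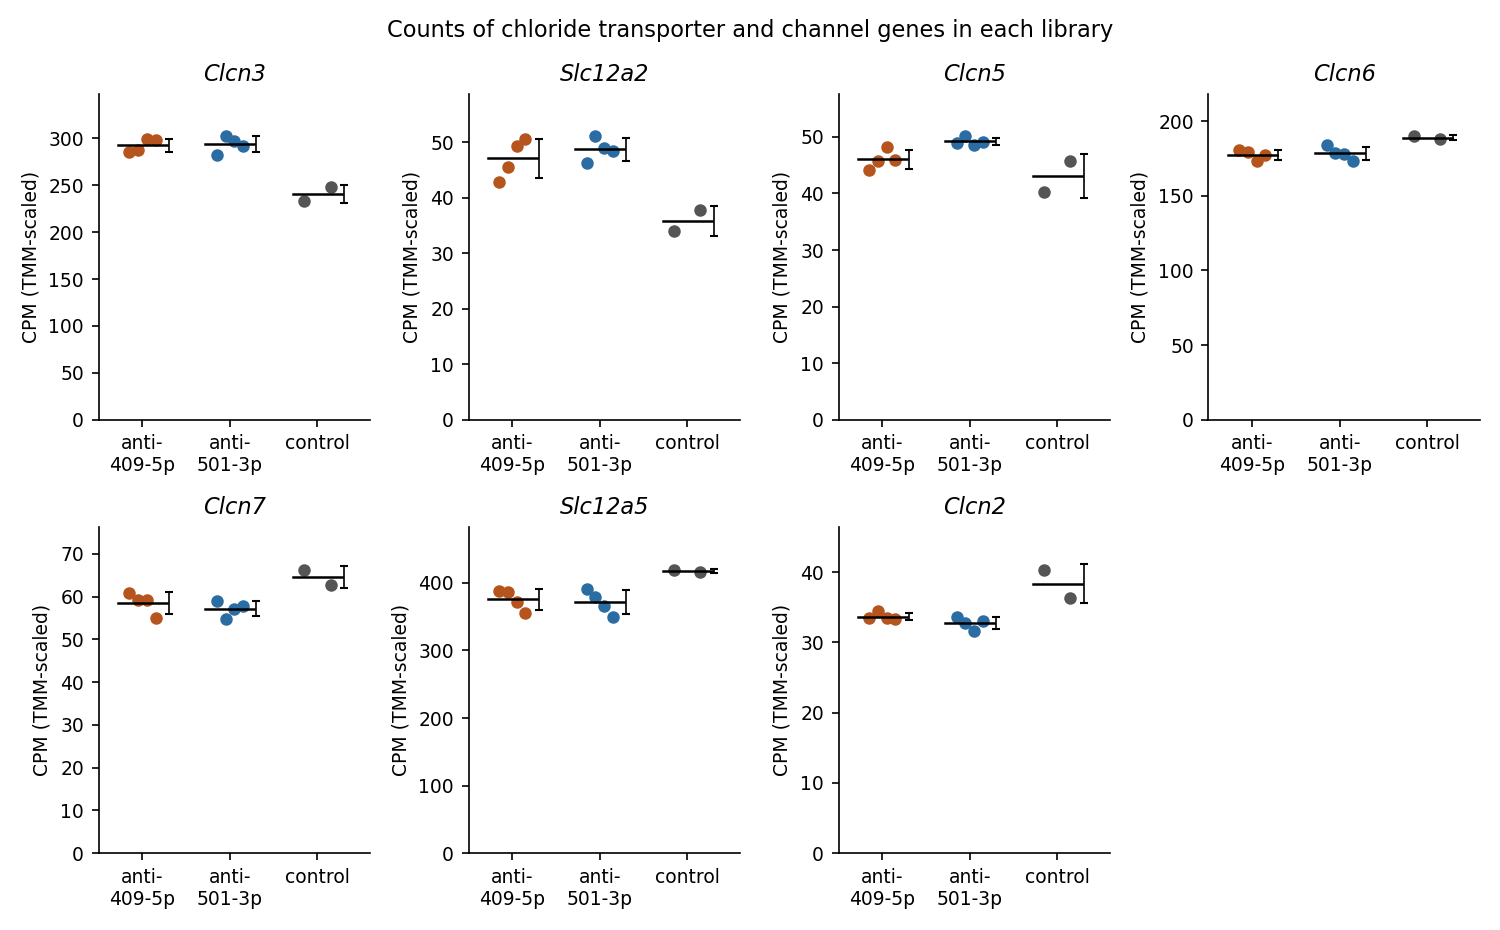
CPM of each gene, after scaling of libraries by the trimmed mean of M-values (TMM), in every library; dots are libraries, lines are group means and bars are SD, with anti-miR-409-5p (n = 4), anti-miR-501-3p (n = 4) and control (n = 2) from left to right and every axis starting at 0. Clcn3 and Slc12a2 stand above both controls in all 8 anti-miR libraries, Clcn6, Clcn7, Slc12a5 and Clcn2 stand below, and Clcn5 overlaps the controls under anti-miR-409-5p.

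The ratio of Slc12a5 to Slc12a2 counts within a library does not depend on how libraries are scaled. It was 9.03, 8.49, 7.55 and 7.03 in the 4 libraries given anti-miR-409-5p (mean 8.02 ± 0.903), 8.45, 7.42, 7.45 and 7.23 in the 4 given anti-miR-501-3p (7.64 ± 0.549), and 12.4 and 11.0 in control (11.7 ± 0.964). Every anti-miR library held fewer exporter counts per importer count than either control. On the log2 scale the mean was 3.00 ± 0.163 under anti-miR-409-5p, 2.93 ± 0.101 under anti-miR-501-3p and 3.54 ± 0.119 in control, so that anti-miR-409-5p minus control was -0.55 and anti-miR-501-3p minus control was -0.61. After the GC correction it was 3.05 ± 0.0861 under anti-miR-409-5p, 3.01 ± 0.0349 under anti-miR-501-3p and 3.28 ± 0.0626 in control, which is -0.23 for anti-miR-409-5p minus control and -0.27 for anti-miR-501-3p minus control, and the anti-miR libraries still did not overlap with the controls. No test was made of this ratio, which combines 2 of the chosen genes. The ratio is one of transcripts, not of proteins or of transport.

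**Figure D3:**
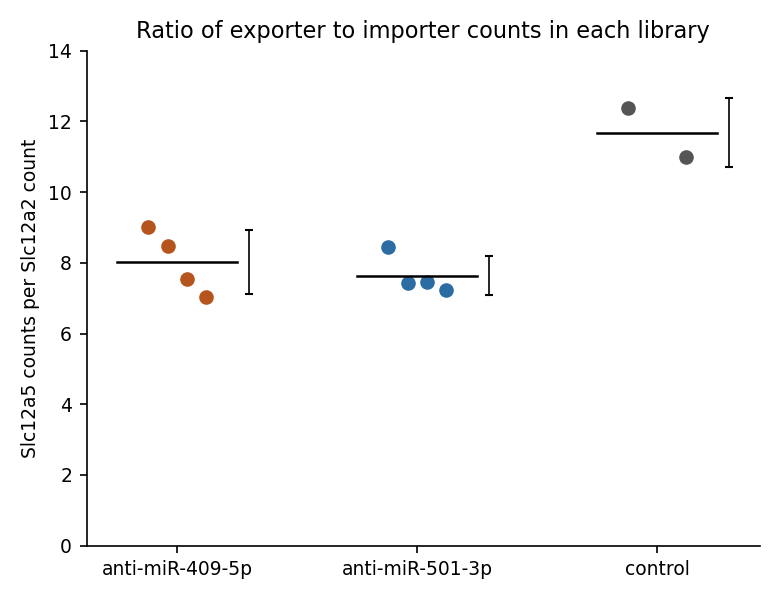
Slc12a5 counts per Slc12a2 count in each library (dots), with group means (lines) and SD (bars), for anti-miR-409-5p (n = 4), anti-miR-501-3p (n = 4) and control (n = 2). The anti-miR libraries lie between 7.03 and 9.03, below the controls at 11.0 and 12.4.

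Among the exchangers of endosomes and lysosomes, Clcn3 rose under both inhibitors, Clcn7 fell under both, Clcn5 rose under anti-miR-501-3p, and Clcn6 did not pass the test. Clcn3 (chromosome 8, 60910389 to 60983300, minus strand), the exchanger of endosomes and intracellular vesicles, had 285, 288, 299 and 298 CPM under anti-miR-409-5p, 283, 303, 298 and 292 CPM under anti-miR-501-3p, and 234 and 248 CPM in control. All 8 anti-miR libraries were above both controls, and the 2 anti-miR groups covered almost the same range. The fold was 1.22 under anti-miR-409-5p (log2 fold change 0.28 ± 0.040, adjusted p = 1.3e-04) and 1.22 under anti-miR-501-3p (0.29 ± 0.040, adjusted p = 6.7e-05). With 41.4% GC, Clcn3 is the poorest in GC of the 7, and genes within 1 percentage point of it had a median of 0.26 under anti-miR-409-5p and of 0.28 under anti-miR-501-3p. Its GC-corrected difference was -0.012 ± 0.033 under anti-miR-409-5p (adjusted p = 0.910) and -0.026 ± 0.033 under anti-miR-501-3p (adjusted p = 0.711).

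Clcn5, the early-endosome exchanger and host of Mir501, had 44.2, 45.75, 48.3 and 45.9 CPM under anti-miR-409-5p, 48.8, 50.2, 48.7 and 49.2 CPM under anti-miR-501-3p, and 40.3 and 45.8 CPM in control. The anti-miR-501-3p libraries were above both controls and close together, whereas 2 of the 4 anti-miR-409-5p libraries were below control replicate 2. Under anti-miR-501-3p the fold was 1.14 (log2 fold change 0.19 ± 0.053, adjusted p = 0.0100), and under anti-miR-409-5p it was 1.07 (0.095 ± 0.053, adjusted p = 0.199). The controls themselves differed, and the values turned on them. Under anti-miR-501-3p the log2 fold change was 0.12 without control replicate 1 and 0.30 without control replicate 2. Under anti-miR-409-5p it was 0.019 without control replicate 1 and 0.20 without control replicate 2. Genes within 1 percentage point of its GC content (44.7%) had a median of 0.14 under anti-miR-409-5p and of 0.14 under anti-miR-501-3p, and the GC-corrected difference was -0.074 ± 0.046 under anti-miR-409-5p (adjusted p = 0.422) and 0.025 ± 0.046 under anti-miR-501-3p (adjusted p = 0.819).

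Clcn6 (chromosome 4, 148004259 to 148038821, minus strand), an exchanger of late endosomes found mainly in the nervous system, had 181, 179, 173 and 177 CPM under anti-miR-409-5p, 184, 179, 178 and 173 CPM under anti-miR-501-3p, and 190.1 and 188 CPM in control. Every anti-miR library was below both controls, by a small margin. The fold was 0.940 under anti-miR-409-5p (log2 fold change -0.089 ± 0.037, adjusted p = 0.0828) and 0.944 under anti-miR-501-3p (-0.082 ± 0.037, adjusted p = 0.0987). It passed the threshold with upper-quartile scaling (adjusted p = 0.0205 under anti-miR-409-5p and 0.0218 under anti-miR-501-3p) and with total-count scaling (0.0169 under anti-miR-409-5p and 0.0153 under anti-miR-501-3p). Genes within 1 percentage point of its 53.0% GC had a median of -0.092 under anti-miR-409-5p and of -0.10 under anti-miR-501-3p, and the GC-corrected difference was -0.015 ± 0.029 under anti-miR-409-5p and 0.0097 ± 0.029 under anti-miR-501-3p.

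Clcn7 (chromosome 17, 25133391 to 25162104, plus strand), the lysosomal exchanger, had 60.8, 59.1, 59.1 and 54.9 CPM under anti-miR-409-5p, 58.9, 54.8, 57.1 and 57.7 CPM under anti-miR-501-3p, and 66.3 and 62.7 CPM in control. Here too the 8 anti-miR libraries were below both controls. The fold was 0.906 under anti-miR-409-5p (log2 fold change -0.14 ± 0.049, adjusted p = 0.0370) and 0.886 under anti-miR-501-3p (-0.18 ± 0.049, adjusted p = 0.0103). Genes within 1 percentage point of its 54.5% GC had a median of -0.12 under anti-miR-409-5p and of -0.14 under anti-miR-501-3p, and the GC-corrected difference was -0.032 ± 0.040 under anti-miR-409-5p (adjusted p = 0.750) and -0.051 ± 0.040 under anti-miR-501-3p (adjusted p = 0.513). The call under anti-miR-409-5p was close to the threshold and ended without control replicate 1 (adjusted p = 0.418), control replicate 2 (0.0626), library 2 (0.0669), 3 (0.0730) or 4 (0.109) of the anti-miR-409-5p group, or library 2 (0.0561) or 4 (0.0516) of the anti-miR-501-3p group, and also without the filter on low counts (0.0552), with DESeq2 (0.0647) and with only the compared groups in the fit (0.0505). The call under anti-miR-501-3p was lost when control replicate 1 was left out (0.228).

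The plasma membrane channel Clcn2 (chromosome 16, 20702964 to 20717746, minus strand) fell under both inhibitors. It had 33.5, 34.4, 33.4 and 33.4 CPM under anti-miR-409-5p, 33.6, 32.7, 31.7 and 33.1 CPM under anti-miR-501-3p, and 40.4 and 36.4 CPM in control. The anti-miR libraries lay below both controls and within a narrow range, and the controls were farther from each other than any pair of anti-miR libraries. The fold was 0.878 under anti-miR-409-5p (log2 fold change -0.19 ± 0.052, adjusted p = 0.0130) and 0.854 under anti-miR-501-3p (-0.23 ± 0.052, adjusted p = 0.00307). Without control replicate 1, the higher of the controls, the log2 fold change was -0.097 under anti-miR-409-5p (adjusted p = 0.372) and -0.14 under anti-miR-501-3p (0.176). With 60.4% GC, Clcn2 is the richest of the 7, and genes within 1 percentage point of it had a median of -0.20 under anti-miR-409-5p and of -0.22 under anti-miR-501-3p. Its GC-corrected difference was 0.0037 ± 0.049 under anti-miR-409-5p (adjusted p = 0.982) and -0.0084 ± 0.049 under anti-miR-501-3p (adjusted p = 0.952). Its exons share 85 bases with Fam131a and 82 bases with Polr2h on the other strand, and the kit does not mark strand, so a part of its counts may belong to those genes.

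**Figure D4:**
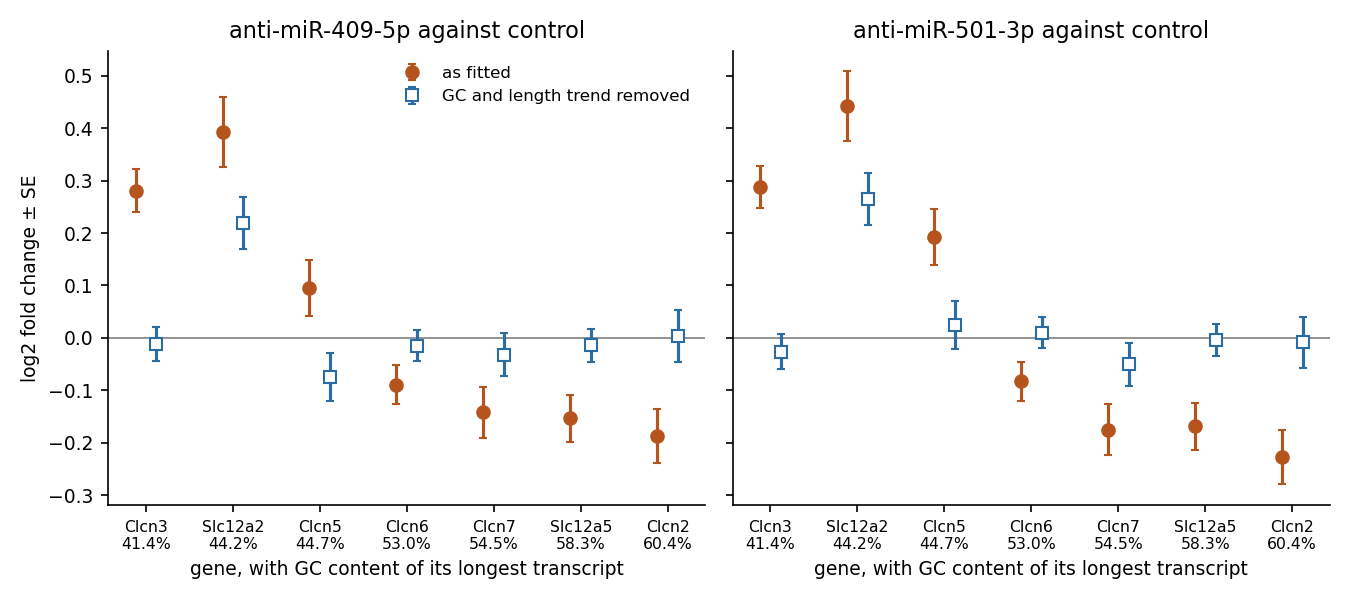
Log2 fold change of each gene against control, for anti-miR-409-5p (left) and for anti-miR-501-3p (right), with SE bars, ordered by transcript GC content; filled circles are the values as fitted and open squares those after the GC and length trend was removed. The circles run from above 0 on the GC-poor side to below 0 on the GC-rich side, and of the squares Slc12a2 alone passed the test, at 0.22 under anti-miR-409-5p and 0.27 under anti-miR-501-3p.

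In all, 5 of the 7 genes passed the test under anti-miR-409-5p, 2 higher and 3 lower, where 27.8% of all tested genes did (15.6% higher, 12.2% lower). With anti-miR-501-3p, 6 of the 7 passed, 3 higher and 3 lower, where 33.0% of all tested genes did (17.6% higher, 15.4% lower). The median log2 fold change of the 7 was -0.089 under anti-miR-409-5p, beside -0.012 over all tested genes, and -0.082 under anti-miR-501-3p, beside -0.012. Over all genes the calls were 2634 rises and 2062 falls under anti-miR-409-5p, but 2233 and 3074 with upper-quartile and 2193 and 3209 with total-count scaling; under anti-miR-501-3p they were 2974 rises and 2605 falls, but 2540 and 3607 with upper-quartile and 2452 and 3779 with total-count scaling. Libraries did not overlap with the controls in 6 of the 7 genes under anti-miR-409-5p, where 48.0% of tested genes did not, and in 7 of 7 under anti-miR-501-3p, where 49.9% did not. Both comparisons use the same 2 control libraries. Without control replicate 1, 2 of the 7 passed in either comparison, Clcn3 and Slc12a2, while over all genes 1302 passed under anti-miR-409-5p in place of 4696 and 1800 passed under anti-miR-501-3p in place of 5579. Leaving out library 3 of the anti-miR-409-5p group left 3 of the 7 calls in its comparison.

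The direction of all 7 followed their GC content. The 3 genes under 50% GC, Clcn3 (41.4%), Slc12a2 (44.2%) and Clcn5 (44.7%), had positive log2 fold changes in both comparisons, and the 4 genes above, Clcn6 (53.0%), Clcn7 (54.5%), Slc12a5 (58.3%) and Clcn2 (60.4%), had negative ones, while the median tested gene has 49.5%. After the GC correction 1 of the 7 passed in each comparison, Slc12a2, where 7.45% of all tested genes did under anti-miR-409-5p and 10.1% did under anti-miR-501-3p. The other 6 then lay between -0.074 and 0.0037 under anti-miR-409-5p and between -0.051 and 0.025 under anti-miR-501-3p. With 1 surrogate variable in the fit, Clcn3 (0.21, adjusted p = 0.00145, under anti-miR-409-5p and 0.20, adjusted p = 0.00835, under anti-miR-501-3p) and Slc12a2 (0.23, adjusted p = 0.0208, under anti-miR-409-5p and 0.25, adjusted p = 0.0385, under anti-miR-501-3p) passed in both comparisons and the other 5 genes in neither. The part of the GC trend in each difference was not tested beyond these fits.

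**Figure D5:**
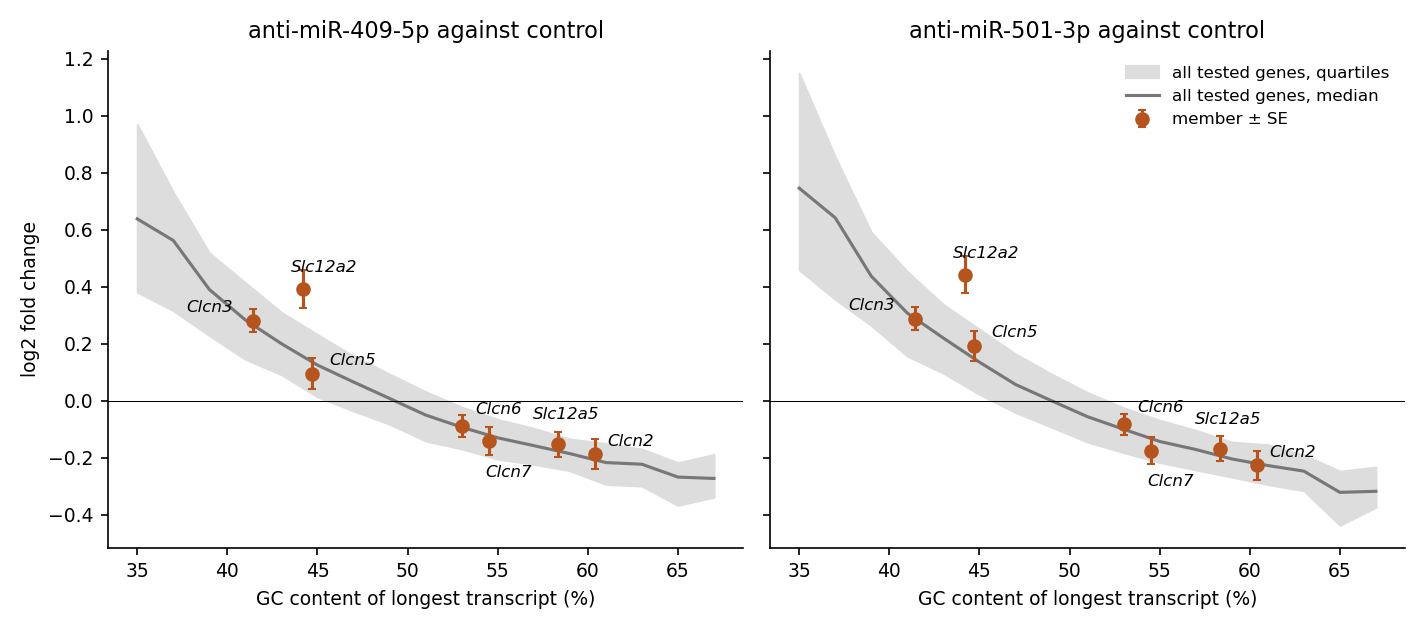
Log2 fold change against control (vertical) against GC content of the longest transcript in % (horizontal); the grey line and band are the median and quartiles of all tested genes in bins of GC content, and orange points are the 7 genes with SE bars. In both panels 6 of the 7 points lie within the grey band and Slc12a2, at 0.39 under anti-miR-409-5p and 0.44 under anti-miR-501-3p, lies above it.

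Set against each other, the inhibitors gave no difference that passed the test in any of the 7 genes, and 0 of 16884 genes passed (992 had an unadjusted p under 0.05, and DESeq2 called 3). With the replicate number as a block, 252 genes passed (1.49%), of which 98 were higher and 154 lower in the anti-miR-409-5p libraries. Again 0 of the 7 passed. These numbers pair the libraries of the 2 groups only in part. Clcn5 came closest: each of the 4 anti-miR-409-5p libraries (44.2 to 48.3 CPM) was below each of the 4 anti-miR-501-3p libraries (48.7 to 50.2 CPM), as was so for 1.81% of tested genes. Its log2 fold change, anti-miR-409-5p over anti-miR-501-3p, was -0.098 (95% interval -0.19 to -0.0069, not adjusted for the number of genes, edgeR adjusted p = 0.845, and 0.169 with the block), and -0.099 after the GC correction (adjusted p = 0.552). The intervals of the other 6 each include 0. They ran from -0.16 to 0.060 for Slc12a2, from -0.063 to 0.093 for Slc12a5, from -0.075 to 0.062 for Clcn3, from -0.071 to 0.057 for Clcn6, from -0.051 to 0.12 for Clcn7 and from -0.051 to 0.13 for Clcn2.

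The other genes of the 2 families moved in both directions. Of 11 further CLC and cation-chloride cotransporter genes 8 were tested. Of these, 2 rose and 2 fell under anti-miR-409-5p (median log2 fold change 0.026), where 27.8% of all tested genes passed. Under anti-miR-501-3p 2 rose and 1 fell (median 0.023), where 33.0% of all tested genes passed. Clcn4, whose product is an endosomal exchanger that pairs with ClC-3, rose by 0.14 ± 0.043 on the log2 scale under anti-miR-409-5p and 0.12 ± 0.042 under anti-miR-501-3p, with GC-corrected values of 0.085 under anti-miR-409-5p (adjusted p = 0.202) and 0.068 under anti-miR-501-3p (0.297). Slc12a9, a family member, fell by 0.21 ± 0.067 under anti-miR-409-5p and 0.30 ± 0.067 under anti-miR-501-3p, with GC-corrected values of -0.020 under anti-miR-409-5p (adjusted p = 0.895) and -0.090 under anti-miR-501-3p (0.301). Slc12a7, which encodes KCC4, fell by 0.34 ± 0.12 under anti-miR-409-5p (adjusted p = 0.0392) and had -0.18 ± 0.12 under anti-miR-501-3p (adjusted p = 0.244), and its GC-corrected values were -0.28 under anti-miR-409-5p (adjusted p = 0.159) and -0.10 under anti-miR-501-3p (0.668). Slc12a4, which encodes KCC1, had -0.19 ± 0.090 under anti-miR-409-5p (adjusted p = 0.131) and -0.24 ± 0.090 under anti-miR-501-3p (adjusted p = 0.0507), and -0.034 under anti-miR-409-5p and -0.070 under anti-miR-501-3p after the correction. Of these 4 genes, 0 passed after the GC correction in either comparison. Over all 8 tested genes of the list, 1 was then higher and 0 lower in each comparison. Of all tested genes, 7.45% then passed under anti-miR-409-5p and 10.1% under anti-miR-501-3p.

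Of 20 partner subunits and regulators 19 were tested. Under anti-miR-409-5p 6 rose and 4 fell (median 0.081), where 27.8% of all tested genes passed. Under anti-miR-501-3p 8 rose and 6 fell (median 0.057), where 33.0% of all tested genes passed. The 4 of smallest p were the same genes in both comparisons. Cul3, the scaffold of the ubiquitin ligase that degrades WNK kinases, rose by 0.49 ± 0.049 under anti-miR-409-5p and 0.51 ± 0.049 under anti-miR-501-3p. Neto2, a protein that binds KCC2, rose by 0.67 ± 0.066 under anti-miR-409-5p and 0.70 ± 0.066 under anti-miR-501-3p. Cab39, a co-activator of the kinases that phosphorylate NKCC1, rose by 0.29 ± 0.045 under anti-miR-409-5p and 0.36 ± 0.045 under anti-miR-501-3p, whereas Wnk2, a WNK kinase, fell by 0.21 ± 0.040 under anti-miR-409-5p and 0.26 ± 0.040 under anti-miR-501-3p. Of these 4, Cab39 passed after the GC correction, at 0.18 under anti-miR-409-5p (adjusted p = 0.00155) and 0.23 under anti-miR-501-3p (adjusted p = 6.61e-05). The GC-corrected value of Cul3, with 38.5% GC, was 0.077 under anti-miR-409-5p and 0.048 under anti-miR-501-3p, that of Neto2, with 36.5%, was 0.12 under anti-miR-409-5p and 0.076 under anti-miR-501-3p, and that of Wnk2, with 62.4%, was -0.030 under anti-miR-409-5p and -0.029 under anti-miR-501-3p. In the whole list, and after the correction, 1 gene was above control and 1 below under anti-miR-409-5p, where 7.45% of all tested genes passed. Under anti-miR-501-3p 3 genes of the list were then above and 2 below, where 10.1% of all tested genes passed. The others among these, named after their values were seen, were Nedd4l, a ubiquitin ligase (-0.11 under anti-miR-409-5p, adjusted p = 0.0175, and -0.13 under anti-miR-501-3p, adjusted p = 0.00676; before the correction 0.014 under anti-miR-409-5p, adjusted p = 0.848, and -0.0029 under anti-miR-501-3p, 0.969), and under anti-miR-501-3p Oxsr1, a kinase that acts on NKCC1 and KCC2 downstream of WNK (0.21, adjusted p = 9.32e-04), Ostm1, the subunit that ClC-7 needs (0.21, adjusted p = 0.00625), and Hepacam, the adhesion protein that binds ClC-2 in glia (-0.13, adjusted p = 0.0425).

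Of 37 other chloride and anion transport genes 33 were tested. Under anti-miR-409-5p 6 rose and 3 fell (median -0.026), where 27.8% of all tested genes passed. Under anti-miR-501-3p 5 rose and 4 fell (median -0.021), where 33.0% of all tested genes passed. Slc4a7, a sodium-bicarbonate cotransporter, rose by 0.45 ± 0.066 under anti-miR-409-5p and 0.47 ± 0.066 under anti-miR-501-3p. Of the subunits of the volume-regulated anion channel, Lrrc8b rose by 0.26 ± 0.043 under anti-miR-409-5p and 0.31 ± 0.043 under anti-miR-501-3p, and Lrrc8c by 0.27 ± 0.050 under anti-miR-409-5p and 0.24 ± 0.050 under anti-miR-501-3p. Ano3, of the anoctamin family, rose by 0.36 ± 0.099 under anti-miR-409-5p and 0.27 ± 0.0997 under anti-miR-501-3p, and Slc4a10, a sodium-driven bicarbonate transporter of neurons, by 0.22 ± 0.069 under anti-miR-409-5p and 0.29 ± 0.069 under anti-miR-501-3p. The GC correction ended the calls of Ano3 (0.017 under anti-miR-409-5p, adjusted p = 0.952, and -0.11 under anti-miR-501-3p, 0.540), of Slc4a10 (-0.024 under anti-miR-409-5p, adjusted p = 0.827, and 0.024 under anti-miR-501-3p, 0.791), of Lrrc8c (0.14 under anti-miR-409-5p, adjusted p = 0.0939, and 0.11 under anti-miR-501-3p, 0.172) and, under anti-miR-409-5p, of Lrrc8b (0.10, adjusted p = 0.0554). After the GC correction 2 genes were higher and 0 lower in each comparison, Slc4a7 (0.17 under anti-miR-409-5p and 0.17 under anti-miR-501-3p) with Lrrc8a under anti-miR-409-5p (0.29, adjusted p = 0.0398, and 0.18, adjusted p = 0.126, before the correction, named after its value was seen) and with Lrrc8b under anti-miR-501-3p (0.15, adjusted p = 0.00242). Of all tested genes, 7.45% then passed under anti-miR-409-5p and 10.1% under anti-miR-501-3p.

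Astrocytes and oligodendrocyte precursors also express Slc12a2, so their markers are set beside it. Of 10 astrocyte markers, 4 rose and 1 fell under anti-miR-409-5p, where 27.8% of all tested genes passed. Under anti-miR-501-3p 3 of them rose and 3 fell, where 33.0% of all tested genes passed. After the GC correction 1 astrocyte marker passed in each comparison, Slc1a2, a glutamate transporter (0.12 under anti-miR-409-5p, adjusted p = 0.00355, and 0.090 under anti-miR-501-3p, adjusted p = 0.0180), named after its values were seen. Of all tested genes, 7.45% then passed under anti-miR-409-5p and 10.1% under anti-miR-501-3p. The summed astrocyte level was above both controls in all anti-miR-409-5p libraries. Under anti-miR-501-3p it ran from 4432.8 to 4649 CPM of total counts, beside 4385 to 4433.7 in control, so these ranges overlapped only at their ends. The CPM of Slc12a2 were TMM-scaled instead. With TMM factors of 1.02 and 1.03 in control and 0.988 to 1.00 under anti-miR-501-3p, that scaling would lower the control sums and end this overlap. Slc12a2 was above both controls in all 8 anti-miR libraries. Of 9 tested oligodendrocyte-lineage markers 0 rose and 0 fell under anti-miR-409-5p (median -0.15), and 1 rose and 2 fell under anti-miR-501-3p (median -0.40). With the GC correction 0 of these passed under anti-miR-409-5p (median -0.082), and under anti-miR-501-3p (median -0.22) Mog, a myelin protein gene, passed at 0.47 (adjusted p = 0.0432, named after its value was seen). The part of these cells in the Slc12a2 difference was not tested.

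Of the genes around Clcn5, 6 of 9 were tested, and 2 rose in each comparison while 0 fell. Among all tested genes 15.6% rose under anti-miR-409-5p and 17.6% under anti-miR-501-3p. Usp27x, a deubiquitinase gene and the nearest of them at 0.0519 Mb, had -0.044 ± 0.053 under anti-miR-409-5p and -0.025 ± 0.053 under anti-miR-501-3p. Dgkk, a diacylglycerol kinase gene at 0.205 Mb, had 0.064 ± 0.073 under anti-miR-409-5p and 0.057 ± 0.073 under anti-miR-501-3p. Shroom4, a cytoskeletal protein gene at 0.516 Mb, had 0.19 ± 0.13 under anti-miR-409-5p and 0.015 ± 0.14 under anti-miR-501-3p, and none of these 3 passed. Nor did they after the GC correction, with Usp27x at -0.0066 under anti-miR-409-5p and 0.025 under anti-miR-501-3p, Dgkk at -0.077 under anti-miR-409-5p and -0.082 under anti-miR-501-3p, and Shroom4 at 0.11 under anti-miR-409-5p and -0.060 under anti-miR-501-3p. The genes that rose encode phosphohydrolases of inositol pyrophosphates. Nudt10, at 0.981 Mb, had 0.68 ± 0.12 under anti-miR-409-5p and 0.82 ± 0.12 under anti-miR-501-3p, and Nudt11, at 1.10 Mb, had 0.51 ± 0.076 under anti-miR-409-5p and 0.61 ± 0.076 under anti-miR-501-3p. They also passed after the GC correction (Nudt10 0.69 under anti-miR-409-5p and 0.81 under anti-miR-501-3p, Nudt11 0.48 under anti-miR-409-5p and 0.58 under anti-miR-501-3p). They are near-identical copies, so how their reads were divided is uncertain. Gspt2, the other tested gene, is 87.3 Mb away.

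As a description over the 10 libraries, which fall into controls and anti-miR libraries, the transcripts whose log2 CPM ran most like that of Clcn5 among 12811 genes were Dus4l (Pearson r = 0.973), Dars (0.965), Igfbp5 (0.962) and Camk1d (0.962), and 74 genes had r above 0.9. For Slc12a2 they were Nebl (0.996), Zbtb6 (0.996), Tmem263 (0.994) and Manea (0.994), with 1606 genes above 0.9. For Slc12a5 they were Pigs (0.992), Samd14 (0.990), Rps14 (0.989) and Dda1 (0.989), with 762 genes above 0.9. The GC content of the 4 nearest was 41.2% to 50.3% for Clcn5 (44.7% itself), 38.2% to 40.3% for Slc12a2 (44.2%) and 56.0% to 62.3% for Slc12a5 (58.3%).

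The authors' deposited table for anti-miR-409-5p called 3 of the 7 genes at an adjusted p of 0.05, Clcn3 (log2 fold change 0.29, adjusted p = 2.69e-07), Slc12a2 (0.40, 1.65e-05) and Slc12a5 (-0.15, 0.0159), and left Clcn2 (0.0521), Clcn7 (0.104), Clcn6 (0.190) and Clcn5 (0.302) above it. The authors' deposited table for anti-miR-501-3p called 6 of the 7, with Clcn5 at 0.20 (adjusted p = 0.0150) and Clcn6 the exception (adjusted p = 0.198). Over all genes the authors' deposited tables held 3601 calls among 17645 genes for anti-miR-409-5p, where 5137 genes had no adjusted p, and 4488 among 17722 for anti-miR-501-3p, where 4123 had none.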

How the data were processed

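RNA was measured in 10 libraries of mouse primary hippocampal neurons. Per the labels' protocols, polyadenylated RNA was made into libraries with a TruSeq RNA v2 kit and sequenced as single ends of 50 bp on a HiSeq2000. The build was mm10 and the tools STAR 2.5.2b, Subread 1.5.1, featureCounts and FastQC 0.11.5, per the submitters' processing notes. The annotation, the strand setting and the treatment of reads mapping to several places are not given in the sources used here. The authors deposited raw counts per Ensembl gene for each library, with no normalization. They also deposited a table per anti-miR whose log2 fold changes, test statistic (score), p-values and normalized signal (counts divided by a factor per library) are named in the file headers. The authors' tool for those tables is not stated, and the tables were used only where named.

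From the counts, 48349 of 48709 genes were matched to symbols, and 16884 passed edgeR's filterByExpr. With R 4.3.3 and edgeR 4.0.16, TMM-scaled counts of all 10 libraries were fitted in 3 groups with no covariate (robust quasi-likelihood, prior count 2 for log2 CPM), and each two-sided comparison was called at a Benjamini-Hochberg adjusted p of 0.05 over all tested genes. The test recovered known changes when tested on simulated data. All of those changes were larger than those of Clcn2, Clcn5, Clcn6, Clcn7 and Slc12a5, and most were larger than those of all 7 genes. The simulation therefore does not show how often changes as small as those of these genes are found. The simulated data held no difference in GC trend between groups, so they do not show how the test does under such a trend. The 7 genes, the lists and the GC correction were chosen with earlier results of these data known. From each list the 4 genes of smallest p per comparison were to be named, and others are marked as such; 1 gene of these lists is not reported here. The GC correction fitted, in each library, log2 deviations on splines (5 degrees of freedom) of transcript GC content and log length, using genes whose mean log2 CPM exceeded 1, and entered the fit as an offset. GC values existed for 99.7% of tested genes. The GC-corrected count ratio was added after the data were seen. Coordinates and transcripts came from GENCODE's mm10 annotation, microRNA sequences from RefSeq. Alternatives were no filter, upper-quartile and total-count scaling, DESeq2 1.42.0, only the compared groups, the replicate number as a block, 1 surrogate variable (sva 3.50.0), the GC correction, the block with it, and each library left out.

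Same-numbered libraries of the 2 anti-miR groups deviated together from their group means (r = 0.375, 0.164, 0.121 and 0.306 across genes). Different-numbered ones had r from -0.333 to 0.177, the highest for anti-miR-409-5p replicate 3 with anti-miR-501-3p replicate 4. The numbers thus pair these libraries only in part, without the labels saying why. The GC slope fell from replicate 1 to replicate 4 in both groups, and its part in these r values was not tested. Against control, r was 0.293 and 0.0423 for anti-miR-409-5p and 0.359 and 0.211 for anti-miR-501-3p over 2 pairs each. With 2 controls, the deviations of one mirror those of the other, so r with one is minus r with the other. Different-numbered pairs with control ran from -0.293 to 0.229 for anti-miR-409-5p and from -0.359 to 0.299 for anti-miR-501-3p. The numbers are treated as labels only. Floors and the stated sampling error cover counting error alone.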

Additional observations from a re-analysis of the deposited data

Results flagged for a closer look

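Clcn2 in anti-miR-409-5p replicate 2 had 34.4 CPM, apart from the other 3 libraries of the group at 33.4 to 33.5 CPM. The gap to its nearest neighbour was 0.896 of the group's range, above the critical value of 0.829 for 4 samples, because the other 3 lie very close together. It remained below both controls (40.4 and 36.4 CPM). This was 1 of 16 groups examined, where chance gives about 1 in 20.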

How the results depend on the processing

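Over the fits without a GC correction, 0 of 98 log2 fold changes of the 7 genes against control changed sign, and 0 of 140 did when a library was left out, whereas 10 of 28 did in the fits with a GC correction. With that correction these were Clcn2 (0.0037), Clcn3 (-0.012) and Clcn5 (-0.074) under anti-miR-409-5p and Clcn3 (-0.026) and Clcn6 (0.0097) under anti-miR-501-3p, and with the replicate block as well they were Clcn5 (-0.059) and Slc12a5 (0.0048) under anti-miR-409-5p and Clcn3 (-0.00013), Clcn6 (0.018) and Slc12a5 (0.015) under anti-miR-501-3p. Between the inhibitors, Clcn3 and Slc12a5 turned to 0.012 and -0.0087 with 1 surrogate variable, to 0.015 and -0.010 with the GC correction, and to 0.015 and -0.010 with block and correction. With a library left out, these values ran from -0.022 to 0.0078 for Clcn3, from -0.019 to 0.010 for Clcn6 and from -0.011 to 0.043 for Slc12a5.

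Of the 7 genes, 2 passed with 1 surrogate variable, 1 with the GC correction and 1 with block and correction, in each comparison against control, and 2 to 5 (anti-miR-409-5p) and 2 to 6 (anti-miR-501-3p) with a library left out. Against control, Slc12a2 passed in every fit run, and Clcn3 in every fit without a GC correction. Over all genes those 3 fits gave 1097, 1258 and 1297 calls under anti-miR-409-5p in place of 4696, and 810, 1707 and 1834 under anti-miR-501-3p in place of 5579, with 1302 to 5111 (anti-miR-409-5p) and 1800 to 6075 (anti-miR-501-3p) when a library was left out. Between the inhibitors the 0 calls became 42 without the filter, 3 with DESeq2, 1 with only the compared groups, 252 with the replicate block, 8 with the surrogate variable, 1 with the GC correction and 189 with block and correction, and 0 to 1 with a library left out; 0 of the 7 genes passed in any of these. The replicate block alone changed no call of the 7 genes. The control mean of the log2 exporter ratio moved to 3.28 with the GC correction, from 3.54, and with a library left out the means ran from 2.94 to 3.06 for anti-miR-409-5p, from 2.88 to 2.96 for anti-miR-501-3p and from 3.46 to 3.63 for control. Per kilobase of the longest transcript, 2 of the 7 genes changed rank in control, and 0 did with a library left out. The causes of these changes were not tested. With 2 control libraries, leaving 1 out assumes that the other varies as the anti-miR libraries do.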
